A study of Mus musculus with 12 samples.

Results

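The genes described here make, cut and hold hyaluronan in murine hip cartilage: the hyaluronan synthases Has1, Has2 and Has3, the hyaluronidases Hyal1 and Hyal2, the precursor enzyme Ugdh, the link protein Hapln1, the hyaluronan-binding protein Tnfaip6 and the receptor Cd44. They were chosen by gene symbol as 9 members, out of 31445 gene symbols on the array. Of the 9, 7 had a probe under their symbol, and 6 had at least 1 probe in the normalized table, which holds 15424 gene symbols. Has1, Has2, Hyal2 and Hapln1 were each read by 1 normalized probe, Hyal1 by 2 and Cd44 by 3, which makes 9 probes in all. RNA was measured on 12 Illumina mouse BeadChip arrays from WT and Mapk9 KO mice, 3 control and 3 injured arrays for each genotype.

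All mice were of the C57BL6 background, aged 4 to 6 weeks by the labels, and the KO mice were labelled as a knockout of Mapk9, the gene of the kinase JNK2. How the Mapk9 allele was made and where in the gene it lies is not given in the sources used here. Injury was the avulsion of the femoral epiphysis. In both genotypes, injured cartilage was kept for 4 h in serum-free medium, whereas control cartilage was snap-frozen without culture, so that injury and culture cannot be told apart. By the methods, which do not mention the KO mice, each replicate pooled 6 hips of 3 mice. Where this holds, the error is the spread between pools.

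Hyaluronan is a long unbranched sugar chain of glucuronic acid and N-acetylglucosamine. The synthases sit in the plasma membrane, join the sugars from UDP-glucuronic acid and UDP-N-acetylglucosamine and push the chain out of the cell. In cartilage the chain is the thread on which aggrecan is strung, with link protein locking each aggrecan to it, and CD44 ties it to the chondrocyte. Hyaluronidases, mainly HYAL2 at the cell surface and HYAL1 in the lysosome, cut the chain, and lysosomal exoglycosidases take the fragments apart.

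The 5 probes that passed the threshold are shown by the first 30 of their 50 bases as the array file gives them, because each reads 1 stretch of its transcript and the levels below are those of that stretch.
Has1 (ILMN_2997282): cgtcggagcggtggttaccgtgtccaagta
Has2 (ILMN_1254975): cgttcaagttctgaaaaactccgactctcg
Hapln1 (ILMN_2753342): gcagccatactggatttcttgatttcagta
Hyal1 (ILMN_2644375): ttcacttacctcacacaagctacccagcca
Hyal2 (ILMN_1230039): gctaggccagagaaggcctgactctactcc

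The 250 bases before the annotated start were read from RefSeq (GRCm38.p6) for 7 of the 9 members. Has2 and Has3 had no promoter sequence in the source used and were not searched. Those of Has1 and Hapln1, which rose, and of both hyaluronidases that fell are printed 5′ to 3′ on the gene's strand. The only match to a searched motif in them is in capitals.
Has1 (chr17:17855189-17855438, minus strand): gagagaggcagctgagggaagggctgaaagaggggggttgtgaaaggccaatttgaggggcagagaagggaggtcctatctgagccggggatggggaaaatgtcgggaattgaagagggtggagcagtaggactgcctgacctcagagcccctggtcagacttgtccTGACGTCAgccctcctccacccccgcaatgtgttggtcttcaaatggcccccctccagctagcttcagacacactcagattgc
Hapln1 (chr13:89540386-89540635, plus strand): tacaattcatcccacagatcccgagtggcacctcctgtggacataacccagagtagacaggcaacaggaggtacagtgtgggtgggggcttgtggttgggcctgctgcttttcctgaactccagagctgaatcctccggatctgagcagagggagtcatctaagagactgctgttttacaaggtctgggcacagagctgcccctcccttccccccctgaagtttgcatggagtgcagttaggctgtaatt
Hyal1 (chr9:107576700-107576949, plus strand): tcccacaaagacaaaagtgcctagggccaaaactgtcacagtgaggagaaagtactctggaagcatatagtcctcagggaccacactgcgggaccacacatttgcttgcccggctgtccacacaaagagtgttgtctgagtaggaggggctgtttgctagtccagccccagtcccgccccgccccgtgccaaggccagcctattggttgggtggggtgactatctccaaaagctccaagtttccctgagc
Hyal2 (chr9:107568913-107569162, plus strand): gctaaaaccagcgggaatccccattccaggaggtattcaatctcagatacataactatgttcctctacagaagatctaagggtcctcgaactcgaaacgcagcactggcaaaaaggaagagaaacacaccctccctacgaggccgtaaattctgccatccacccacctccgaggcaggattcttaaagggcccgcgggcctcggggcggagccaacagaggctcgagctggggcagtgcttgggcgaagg

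Motifs for 4 factor families were searched on both strands: AP-1 (TGANTCA), CRE (TGACGTCA), NF-kB (GGGNN followed by TTTCC) and the STAT motif GAS (TTCNNNGAA). The Has1 promoter held 1 CRE match, 83 bases before the start, a match found in 1.55% of 32851 promoters of that length. The Tnfaip6 promoter held 1 AP-1 match and 1 GAS match, found in 6.75% and 7.02% of promoters. The other 5 promoters, those of Hapln1, Hyal1, Hyal2, Cd44 and Ugdh, held none of these letters in this window. The NF-kB letters were in none of the 7 and in 1.41% of all promoters.

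The labels were checked first. The Mapk9 probe ILMN_2591066 read 10.50 to 10.90 in WT controls and 9.14 to 9.28 in Mapk9 KO controls on the log2 scale, and 10.05 to 10.57 against 8.69 to 8.78 post injury. KO minus WT was -1.57 ± 0.21 (SE) in controls (limma, adjusted p = 0.0151) and -1.57 ± 0.18 in injured hips (adjusted p = 0.00485), yet the probe was detected on all 12 arrays. A dimmer Mapk9 probe, ILMN_2716527, was detected on 3 WT control arrays and 1 WT injured array and on none of the 6 KO arrays. All 10 chondrocyte markers with a normalized probe, Col2a1, Sox9 and Acan among them, were detected on 12 arrays, while Col9a3, Matn3 and Cnmd had probes only outside the table. Between 16930 and 18969 probes were detected per array.

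Post injury, the signal of the synthases Has1 and Has2 and of the link protein Hapln1 was higher, and that of Hyal2 and of 1 of the 2 Hyal1 probes was lower, in both genotypes. Of the 9 member probes, 3 were upregulated in WT (Has1, Has2 and Hapln1), 2 were downregulated (Hyal1 and Hyal2) and 4 did not pass the threshold, which was an adjusted p under 0.05 and a fold change above 2 (limma, Benjamini-Hochberg over all 21004 probes). In Mapk9 KO the 5 probes that passed were those of the same genes, in the same directions. The 5 of 9 probes are 55.6%, beside 14.7% of all probes called in WT (7.55% higher, 7.14% lower) and 18.7% in Mapk9 KO (9.59% higher, 9.14% lower). Control and injured arrays did not overlap for 41.2% of all probes in WT and for 49.7% in Mapk9 KO. The median difference over the 9 member probes was 0.39 in WT and 0.14 in Mapk9 KO on the log2 scale, beside -0.02 over all probes in each. On bulk arrays, fewer cells of a type and less RNA per cell cannot be told apart.

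**Figure D1:**
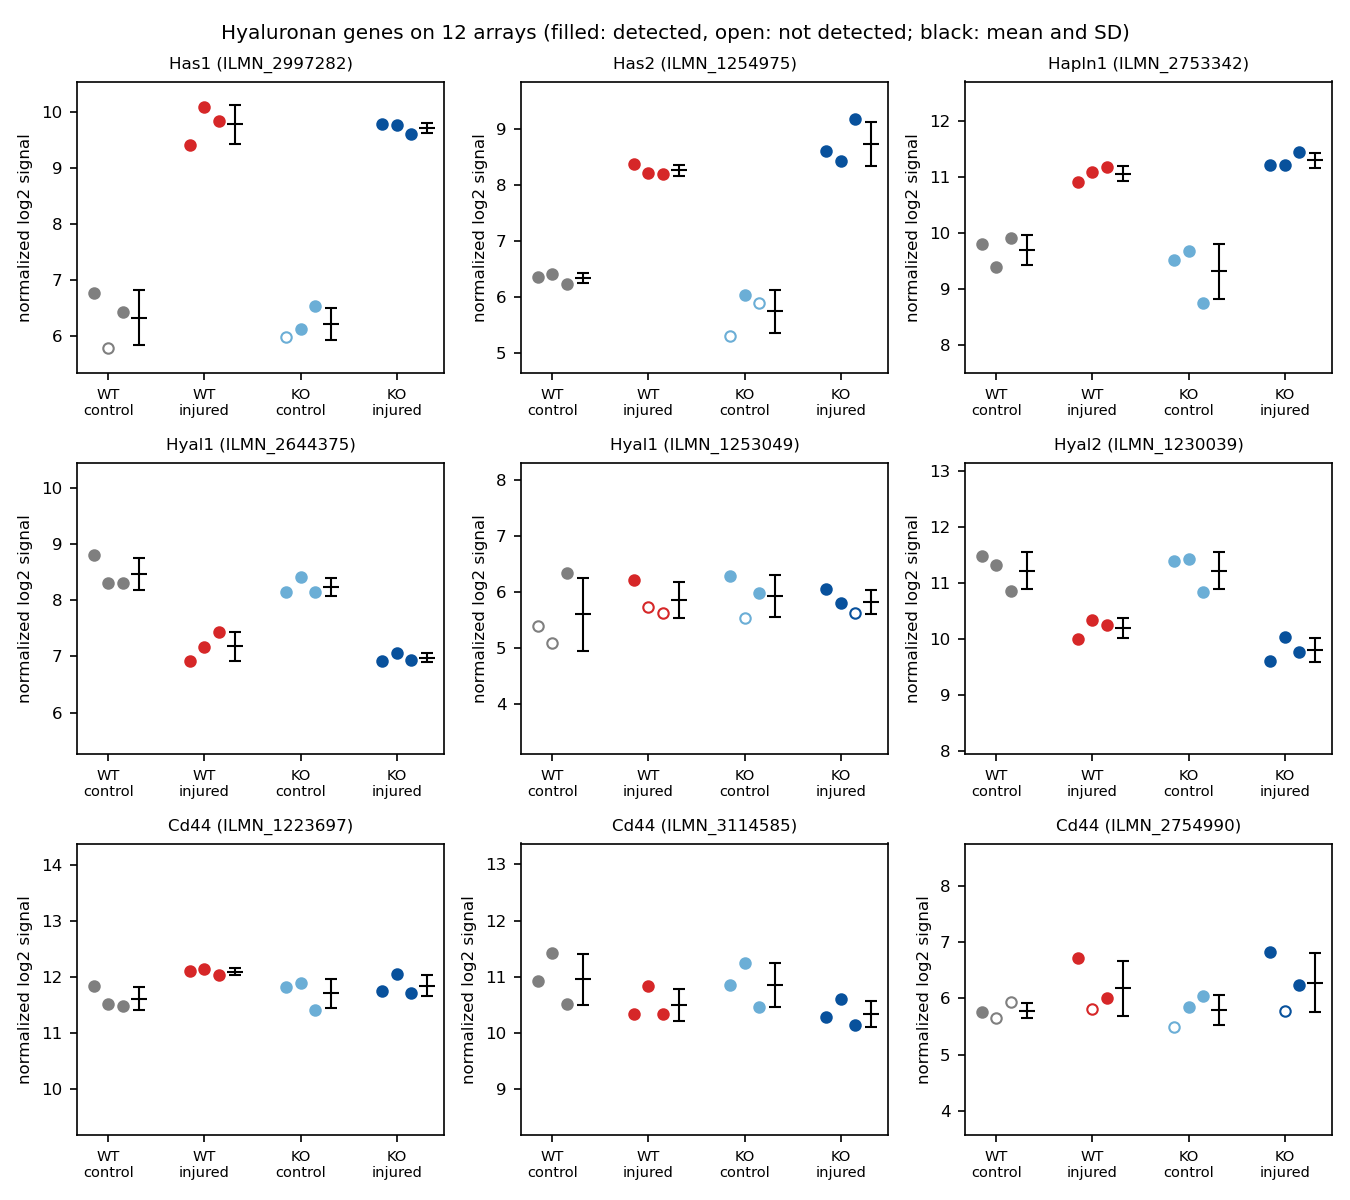
Normalized log2 signal (y axis, the same span in every panel) of the 9 member probes on each of the 12 arrays, by group, with the mean and SD (n = 3) in black. Filled points were detected above background and open points were not. Has1, Has2 and Hapln1 sit higher in both injured groups than in both control groups, Hyal2 and the brighter Hyal1 probe lower, and the Cd44 groups lie close together.

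Has1, which makes hyaluronan in stimulated mesenchymal cells, had the largest change of the measured members. Its log2 signal was 6.77, 5.80 and 6.44 in WT controls and 9.41, 10.10 and 9.85 in WT injured hips. In Mapk9 KO it was 6.00, 6.14 and 6.54 in controls and 9.78, 9.76 and 9.61 post injury. The lowest injured array thus lay well above the highest control array in each genotype, and 1 array of each control group was not detected above background. Has1 rose by 3.45 ± 0.28 (SE) in WT (limma, adjusted p = 3.54e-05) and by 3.50 ± 0.19 in Mapk9 KO (adjusted p = 4.08e-07). With the undetected arrays set to the lowest value of a detected probe on the same array, this is at least 10.7-fold in WT and at least 11.2-fold in Mapk9 KO on the deposited values. Quantile normalization without background correction gave smaller rises, 2.33 in WT and 2.37 in Mapk9 KO on the log2 scale, both past the threshold. Its other probe, ILMN_1228419, lay outside the normalized table and was detected on no array.

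Has2, the main synthase of cartilage and of the embryo, rose in both genotypes. Its log2 signal was 6.37, 6.42 and 6.25 in WT controls and 8.38, 8.22 and 8.20 in WT injured hips. In Mapk9 KO it was 5.32, 6.04 and 5.90 in controls and 8.62, 8.43 and 9.18 post injury. The injured arrays did not overlap the control arrays, and only 1 of the 3 KO control arrays was detected. Has2 rose by 1.92 ± 0.19 in WT, which is 3.79-fold (limma, adjusted p = 9.57e-05), and by 2.99 ± 0.25 in Mapk9 KO (adjusted p = 7.21e-06), which is at least 6.67-fold with the undetected arrays at the same floor. Without background correction (quantile normalization) the rises were 1.14 and 1.74, both past the threshold. The order of its 4 group means, from low to high, was KO control, WT control, WT injured and KO injured, and no neighbouring groups overlapped.

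Hapln1, the link protein that fastens aggrecan to hyaluronan, rose with the synthases. Its log2 signal was 9.80, 9.39 and 9.91 in WT controls and 10.92, 11.09 and 11.18 in WT injured hips. In Mapk9 KO it was 9.52, 9.68 and 8.76 in controls and 11.22, 11.22 and 11.46 post injury. All arrays were detected, and injured and control arrays did not overlap in either genotype. The difference was 1.36 ± 0.21 in WT, which is 2.57-fold (limma, adjusted p = 0.00135), and 1.98 ± 0.24 in Mapk9 KO, which is 3.94-fold (adjusted p = 0.000102).

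Hyal2, the cell-surface hyaluronidase anchored by a lipid tail, fell. Its log2 signal was 11.49, 11.31 and 10.86 in WT controls and 10.00, 10.35 and 10.25 in WT injured hips. In Mapk9 KO it was 11.40, 11.42 and 10.84 in controls and 9.61, 10.04 and 9.78 post injury. Replicate 3 was the lowest control array of both genotypes and still lay above every injured array. Hyal2 decreased by 1.02 ± 0.23 in WT (limma, adjusted p = 0.00858), which is 2.03-fold and just past the fold limit, and by 1.41 ± 0.21 in Mapk9 KO (adjusted p = 0.000416), which is 2.66-fold. In WT it fell under the fold limit without WT control replicate 1 (-0.89), without WT control replicate 2 (-0.98) and without WT injured replicate 1 (-0.92). It also lost the call with array medians subtracted (-0.97) and with the methods' t-test (adjusted p = 0.0621).

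Hyal1, the lysosomal hyaluronidase, fell at the brighter of its probes. At ILMN_2644375 the log2 signal was 8.80, 8.31 and 8.31 in WT controls and 6.92, 7.18 and 7.44 in WT injured hips. In Mapk9 KO it was 8.16, 8.42 and 8.14 in controls and 6.92, 7.06 and 6.94 post injury. Injured and control arrays did not overlap, and all were detected. The decrease was 1.30 ± 0.23 in WT, or 2.45-fold (limma, adjusted p = 0.00279), and 1.27 ± 0.17 in Mapk9 KO, or 2.41-fold (adjusted p = 0.000195), and both were under the fold limit when the arrays were quantile normalized without background correction (-0.83 and -0.81). The other probe, ILMN_1253049, read between 5.08 and 6.33 and was detected on 6 of 12 arrays. Its differences of 0.26 ± 0.32 in WT (adjusted p = 0.603) and -0.10 ± 0.22 in Mapk9 KO (adjusted p = 0.753) did not pass, so that the fall of Hyal1 rests on 1 probe.

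Cd44, the main hyaluronan receptor of chondrocytes and leukocytes, did not pass the threshold at any of its 3 normalized probes. The brightest, ILMN_1223697, read 11.84, 11.51 and 11.49 in WT controls and 12.10, 12.15 and 12.03 in WT injured hips, and 11.81, 11.89 and 11.41 against 11.75, 12.06 and 11.72 in Mapk9 KO. The WT groups did not overlap, and the KO groups did. The difference was 0.48 (95% confidence interval 0.04 to 0.91, limma, adjusted p = 0.104) in WT and 0.14 (-0.29 to 0.57, adjusted p = 0.622) in Mapk9 KO. A second bright probe, ILMN_3114585, pointed the other way, with -0.46 (-1.05 to 0.14, adjusted p = 0.248) in WT and -0.51 (-1.02 to -0.01, adjusted p = 0.0997) in Mapk9 KO. ILMN_2754990 lay near background, detected on 7 of 12 arrays, with differences of 0.39 and 0.49. The Cd44 transcript has many splice forms, and which of them each probe reads was not tested. A further 6 Cd44 probes lay outside the normalized table.

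**Figure D2:**
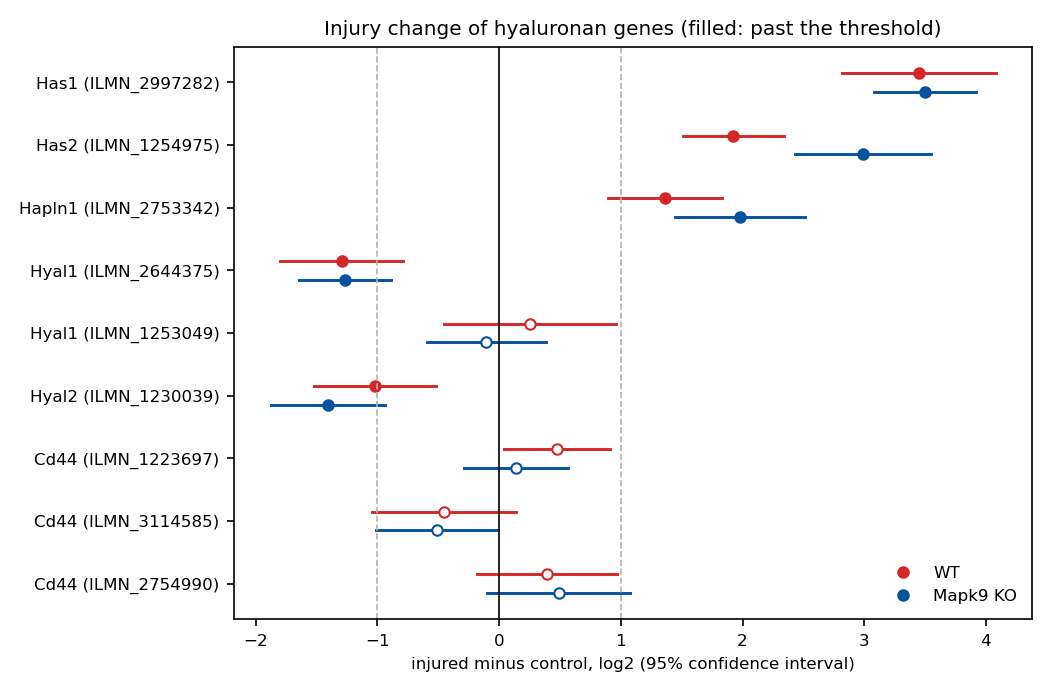
Injured minus control signal on the log2 scale (x axis) with its 95% confidence interval for the 9 member probes in WT (red) and Mapk9 KO (blue). Filled points passed the threshold, and dashed lines mark a 2-fold change. Has1 stands farthest to the right at 3.45 and 3.50, and Has2 at 1.92 and 2.99 shows the widest gap between the genotypes.

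Ugdh, which makes the UDP-glucuronic acid that the synthases use, had 1 probe, outside the normalized table. Its raw signal lay between 99.9 and 146 and it was detected on none of the 12 arrays. The 8 member probes outside the table, 1 of Has1, 6 of Cd44 and that of Ugdh, had raw signals of 96.9 to 200, and their lowest detection p-value was 0.0684. When all probes of the array were normalized together (neqc), 0 of these 8 were called in any of the 5 comparisons with limma. Has3, the third synthase, and Tnfaip6, which crosslinks hyaluronan in inflamed tissue, had no probe matched by symbol and were not analysed here.

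Genotype was compared within each condition, and no member was called. In controls, 0.119% of all probes were called between genotypes, and in injured hips 0.181%. Has2 was the member with the smallest unadjusted p in both. In controls its fitted difference, Mapk9 KO minus WT, was -0.59 ± 0.24 (95% confidence interval -1.11 to -0.07, limma, adjusted p = 0.715). However, 2 of the 3 KO control arrays were not detected. With these at the floor the KO mean was at least 1.26-fold lower, a bound on the means that leaves out sampling error. In injured hips the difference was 0.48 ± 0.21 (adjusted p = 0.387), and the 3 arrays of each genotype did not overlap in either condition. Hapln1 did not overlap between the genotypes in injured hips, with a difference of 0.23 (95% confidence interval -0.13 to 0.60), and overlapped in controls (-0.38, -0.99 to 0.23). Over all probes, 10.8% did not overlap in controls and 16.8% in injured hips. The summed signal of 19 skeletal muscle markers also stood apart between the control groups, at 77605 to 124900 in WT and 141370 to 206030 in Mapk9 KO, and overlapped between the injured groups. With neqc normalization it overlapped in controls as well (77495 to 178350 and 165880 to 175030). In injured hips the summed signal of 9 endothelial markers stood apart, at 11069 to 12267 in WT and 8049 to 10772 in Mapk9 KO. It did so with neqc too (10780 to 11627 and 8685 to 9996). The macrophage and monocyte sums stood apart in injured hips with neqc only (31880 to 35923 in WT and 36768 to 38559 in Mapk9 KO). The part of these sums in the Has2 and Hapln1 differences was not tested. For Has1 the genotypes differed by -0.11 (95% confidence interval -0.72 to 0.50) in controls and -0.06 (-0.51 to 0.38) in injured hips. For Hyal2 the difference was 0.00 (-0.56 to 0.56) in controls and -0.39 (-0.79 to 0.01) in injured hips.

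Whether injury acted differently in Mapk9 KO was tested as an interaction over all 12 arrays, and 0 of 21004 probes passed in limma, with 9.94% at an unadjusted p under 0.05. Has2 had the largest interaction of the members, 1.07 ± 0.32 (95% confidence interval 0.39 to 1.75, limma, adjusted p = 0.325). Within replicate numbers, its injured minus control difference was 2.01, 1.80 and 1.96 in WT and 3.30, 2.39 and 3.28 in Mapk9 KO. The KO control arrays behind 3.30 and 3.28 were not detected. How many of all probes separate the genotypes in such differences was not tabulated. With the 2 undetected KO control arrays at the floor, the gap between the genotypes was 0.81. For Hapln1 the interaction was 0.61 (-0.09 to 1.32, adjusted p = 0.553), with 1.12, 1.70 and 1.27 in WT and 1.70, 1.53 and 2.70 in Mapk9 KO by replicate number. It was 0.05 (-0.72 to 0.81) for Has1, 0.03 (-0.56 to 0.61) for the brighter Hyal1 probe, -0.39 (-1.05 to 0.28) for Hyal2 and -0.34 (-0.90 to 0.22) for the brightest Cd44 probe.

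The genotype counts depended on the replicates. With the replicate number as a block, the interaction gave 112 probes in place of 0 and the genotype comparison of injured hips 188 in place of 38, and 0 member probes were called in either. The blocked adjusted p of the Has2 interaction was 0.14, the lowest over its 20 alternatives, which reached up to 0.647. Without WT control replicate 3, 412 probes were called between genotypes in controls in place of 25, and 242 in the interaction in place of 0, again with 0 member probes.

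The wider hyaluronan pathway was described with 42 other genes, of which 23 had a normalized probe. In WT, 4 genes were upregulated, 3 downregulated and 16 not called. In Mapk9 KO, 6 were upregulated, 7 downregulated and 10 not called. A gene was counted when any of its probes was called. By probe, 6 of the 34 on the list were higher and 3 lower in WT, beside 7.55% higher and 7.14% lower over all probes. In Mapk9 KO 8 were higher and 8 lower, beside 9.59% and 9.14%. No gene was called between genotypes or in the interaction. The median over these probes was 0.34 in WT and 0.49 in Mapk9 KO, beside -0.02 over all probes.

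Among 5 measured genes of sugar precursor supply, Gfpt2, which starts the hexosamine route to UDP-N-acetylglucosamine, was upregulated in both genotypes. Its group mean went from 8.97 to 10.74 in WT, a rise of 1.78 ± 0.34 (limma, adjusted p = 0.0042), and from 8.81 to 10.64 in Mapk9 KO, a rise of 1.83 ± 0.17 (adjusted p = 1.43e-05). Gfpt1, of the same step, was called at 1 of 3 probes in Mapk9 KO, where the control arrays were not detected, and was at least 1.56-fold higher. That probe read 0.53 in WT, and the other probes of Gfpt1, detected on 3 and 4 of 12 arrays, read between -0.37 and 0.19. Uap1l1, a relative of the enzyme that forms UDP-N-acetylglucosamine, fell by 1.21 ± 0.21 in Mapk9 KO and had a difference of -0.80 ± 0.22 in WT, under the fold limit. Uap1 (0.41 in WT, 0.89 in Mapk9 KO) and Ugp2 (-0.31 and -0.51) were not called.

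Among 3 measured genes of hyaluronan breakdown beside the members, 2 lysosomal enzymes were called lower in at least 1 genotype and none was called higher. Gusb, the beta-glucuronidase, fell in both, at 1 of its 3 probes in WT (-1.51 ± 0.40, limma, adjusted p = 0.0207) and at 2 of 3 in Mapk9 KO (-1.16 and -1.33). Its probes that were not called read -0.64 and -0.93 in WT and -0.53 in Mapk9 KO. Hexa, a lysosomal beta-hexosaminidase subunit, fell by 1.10 ± 0.19 in Mapk9 KO, and its difference of -0.84 ± 0.22 in WT was under the fold limit. Cemip2, listed as Tmem2 and described as a cell-surface hyaluronidase, had differences of 0.61 to 0.97 over 3 probes and both genotypes, none past the fold limit. Called in 1 genotype and not in the other does not show that the genotypes differ, and none of these interactions passed.

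Of 8 measured genes in the list of hyaluronan-binding matrix proteins and inter-alpha-inhibitor chains, Acan and Ptx3 were upregulated in both genotypes. Acan, the aggrecan core protein listed as Agc1, rose by 2.03 ± 0.39 in WT and 2.18 ± 0.21 in Mapk9 KO at its brighter probe, and by 1.94 and 2.28 at the other. Ptx3, a pentraxin that helps crosslink hyaluronan, rose by 2.13 ± 0.24 and 2.22 ± 0.25 at ILMN_2662802, with 2 of 3 control arrays detected in each genotype, or at least 4.28-fold and 4.51-fold. Its other probe, ILMN_2662803, rose by 1.28 ± 0.41 in WT (limma, adjusted p = 0.0435), or at least 2.19-fold, and by 2.13 ± 0.19 in Mapk9 KO, or at least 3.99-fold. Hapln4, a link protein known from brain, fell by 2.59 ± 0.25 in WT, or at least 5.61-fold, and was detected on none of the KO injured arrays, which makes it at least 5.23-fold lower there. Itih5, a heavy chain relative of inter-alpha-inhibitor, was at least 1.55-fold lower in Mapk9 KO injured hips, where it was not detected. It was not detected on the WT injured arrays either, and its WT difference of -0.77 ± 0.37 was not called (limma, adjusted p = 0.154). Vcan, Hapln3, Itih2 and Habp4 were not called, with differences between -0.62 and 0.68.

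Of 7 measured receptors and linkers, Tlr2, a Toll-like receptor that hyaluronan fragments have been reported to engage, had the largest change, a rise of 2.78 ± 0.21 in WT and 2.87 ± 0.22 in Mapk9 KO (limma, adjusted p = 2.01e-05 and 3.37e-06). Stab1, a scavenger receptor of macrophages and sinusoidal endothelium, fell by 1.20 ± 0.21 and 1.51 ± 0.24. Msn, which links CD44 to actin, rose by 1.18 ± 0.18 in Mapk9 KO at 1 of 3 probes, and that probe read 0.81 ± 0.24 in WT. Its probe ILMN_2694960 read -0.52 ± 0.46 in WT and 0.91 ± 0.31 in Mapk9 KO, with an interaction of 1.43 ± 0.64 (limma, adjusted p = 0.482), and ILMN_2583410 read 0.42 and 0.49. The probes of Msn thus did not share a direction in WT. Lyve1, the lymphatic hyaluronan receptor listed as Xlkd1, was called lower in Mapk9 KO, just past the fold limit, but was detected on 1 of 12 arrays, and its WT difference of -0.77 ± 0.35 was not called. Stab2, Tlr4 and Ezr were not called, with differences between 0.10 and 0.70.

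**Figure D3:**
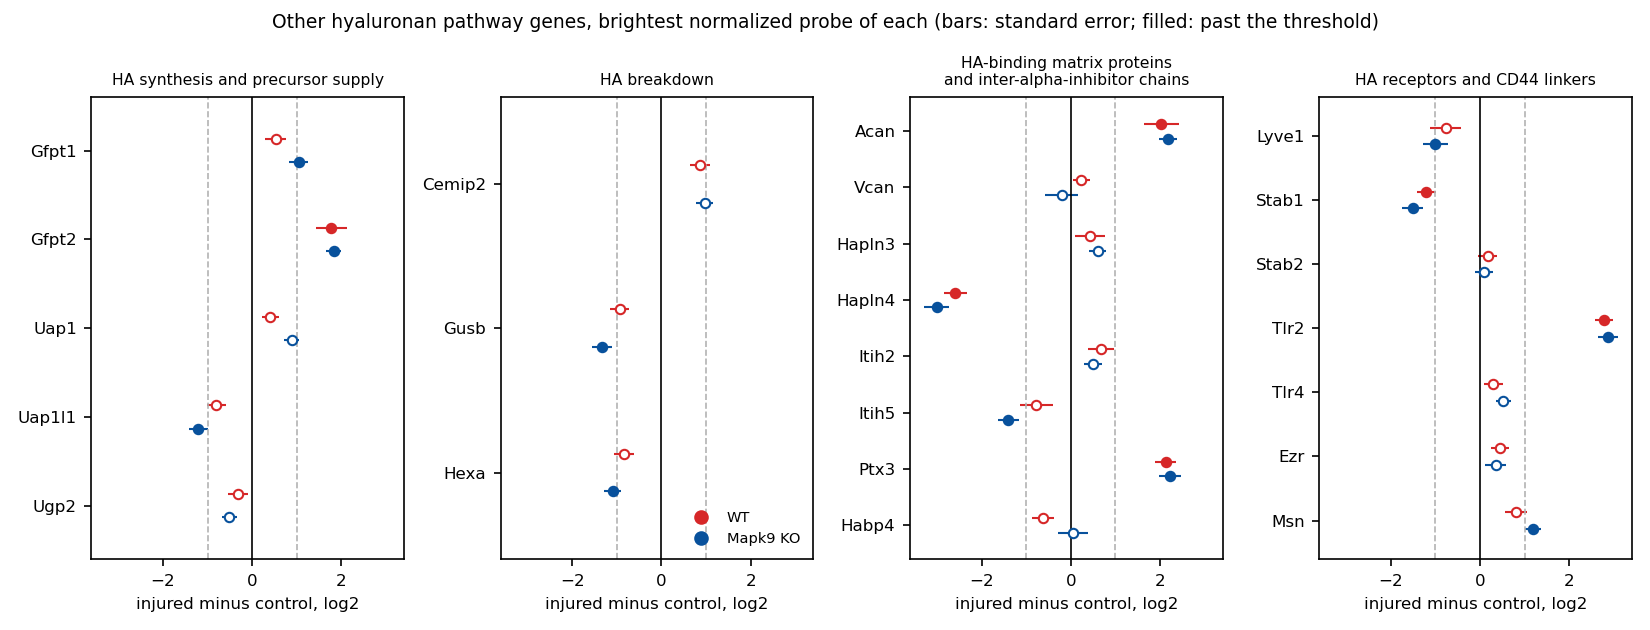
Injured minus control signal on the log2 scale (x axis, bars show the SE) for the 23 measured genes of the wider pathway, brightest probe of each, in WT (red) and Mapk9 KO (blue). Filled points passed the threshold and dashed lines mark a 2-fold change. Tlr2, Acan, Ptx3 and Gfpt2 lie to the right and Hapln4 and Stab1 to the left in both genotypes, and Gusb and Hexa lie around -1.

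Markers of other cell types moved with injury beside these genes, and their part in the results was not tested. Of 19 measured skeletal muscle markers, 17 were lower in WT and 19 in Mapk9 KO, and their summed linear signal went from 77605 to 124900 in WT controls to 10686 to 38720 in WT injured hips, and from 141370 to 206030 to 13818 to 33367 in Mapk9 KO. Of 10 chondrocyte markers, Acan of the wider pathway among them, 6 were higher and 1 lower in WT and 7 higher in Mapk9 KO. The 1 lower in WT was Col11a1, called at a dimmer of its 3 probes. Its brightest probe, used in the sums, went from a WT mean of 8.56 to 9.40. The chondrocyte sums were 37404 to 69462 against 95622 to 113880 in WT and 40710 to 67800 against 81393 to 106380 in Mapk9 KO. Of 12 macrophage and monocyte markers, 5 were higher and 4 lower in WT and 5 and 5 in Mapk9 KO, with sums of 16507 to 23912 against 34298 to 38051 and 19857 to 24865 against 33150 to 44054. Of 9 neutrophil markers, 6 were higher in WT and 5 in Mapk9 KO, with sums of 55809 to 94215 against 129760 to 152750 and 73868 to 102490 against 105550 to 152650. Fewer moved among 9 erythroid (2 lower in each genotype), 9 endothelial (1 higher in WT) and 8 fibroblast markers (2 lower in WT, 3 in Mapk9 KO), and the sums of these lists overlapped between control and injured arrays on the deposited values. With neqc normalization the endothelial sums still overlapped, but the erythroid and fibroblast sums were lower on every injured array of the same genotype. The erythroid sums then were 86951 to 94455 in controls against 78540 to 83056 in WT, and 91905 to 100670 against 76043 to 81626 in Mapk9 KO. The fibroblast sums were 21788 to 22343 against 19013 to 20194 in WT, and 21996 to 24930 against 17730 to 19384 in Mapk9 KO. No marker was called between genotypes.

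**Figure D4:**
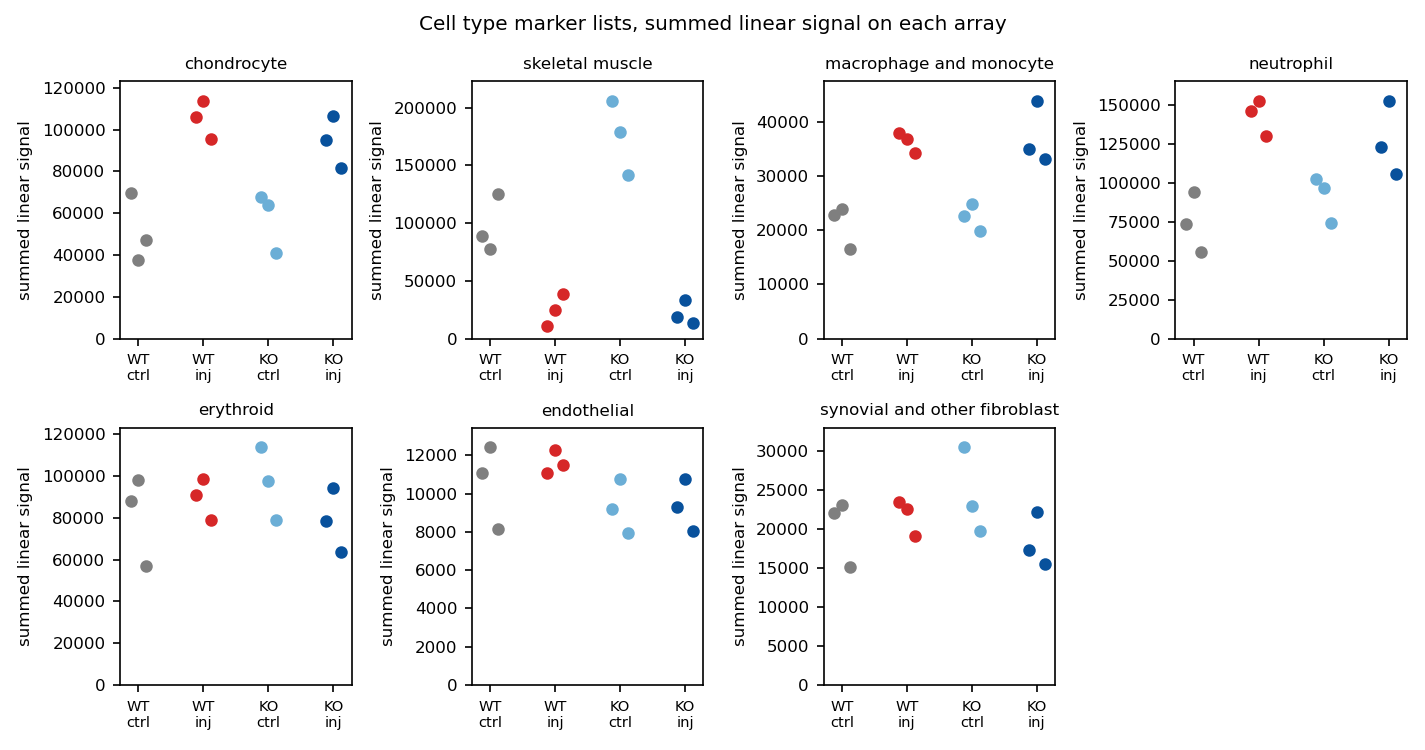
Summed linear signal (y axis, from 0) of each marker list on each array, by group, 1 point per array. The muscle sum is lower on every injured array than on every control array of the same genotype. The chondrocyte, macrophage and neutrophil sums are higher in that comparison, although single macrophage markers were called in both directions. The erythroid, endothelial and fibroblast sums overlap on the deposited values plotted here. With neqc normalization the erythroid and fibroblast sums do not overlap and are lower post injury.

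The genes whose signal followed each called member most closely were sought by Pearson's r over the 12 arrays among 15423 genes, given as a description because control and injured arrays form separate clusters that carry r. Has1 ran closest to Pfkl (r = 0.9986), a glycolytic phosphofructokinase subunit, then Cdsn (0.9945) and Sertad1 (0.9944). Has2 ran closest to 4732435N03Rik (0.9854), BC008171 (0.984) and Muc2 (0.9808). Hapln1 ran closest to 4930583H14Rik (0.9918), A330049M08Rik (0.9911) and Steap (0.9901). Hyal1 ran closest to Zfp30 (0.9882), Sdc2 (0.9856) and Rerg (0.9852). Hyal2 ran closest to Uap1l1 (0.9923), a gene of the wider pathway described above, then Sdf4 (0.9901) and Tm7sf1 (0.9896). Between the members, r was 0.9517 for Hyal1 with Hyal2, 0.9491 for Has1 with Has2 and -0.9225 for Has2 with Hyal2.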

How the data were processed

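Hip cartilage RNA was measured on 12 Illumina mouse BeadChips, 3 in each of 4 groups taken from the sample labels. The authors deposited raw signal intensity and a detection p-value for 45281 probes. Background was removed by the authors with the negative controls of each array, vsn was applied, and the resulting log2 values of 21004 probes were deposited. The versions of R and vsn behind these values are not given in the sources used here. A probe was called detected at a detection p-value under 0.05. The number of arrays limits the precision.

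Probes were matched to genes by the symbol in the deposited file, case ignored, and older symbols were used for some pathway genes. The log2 values were tested with limma 3.58.1 (lmFit, eBayes) in R 4.3.3, each 2-group comparison on its own 6 arrays and the interaction on all 12, with Benjamini-Hochberg adjustment over all probes. Tables were made with Python 3.11.15. Called means an adjusted p under 0.05 and a fold above 2, as the study's text states for the arrays, and only the adjusted p for the interaction. The scripts were tested on simulated data. Bounds set undetected arrays to that array's lowest normalized value among detected probes, unless their own value was higher (5.62 to 6.05).

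Named were all 9 members, Mapk9, the pathway genes with a normalized probe, the 3 genes most like each called member and the defining markers. A gene of the pathway list is not reported here, and the list's counts leave it out. The members, lists and motifs were chosen with earlier results of these data known, and the NF-kB motif was added after the other 3 had been searched.

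Groups share replicate numbers from the labels. Deviations from group means correlated at 0.153 to 0.390 over the 18 pairs with the same number and at -0.289 to 0.0825 over the 36 others. Such deviations cancel out within a group, so positive values over some pairs go with negative values over others. The numbers were taken as pairing the samples only in the replicate block and in the differences by replicate number. The main fits, with their SE and adjusted p, were unpaired. Alternatives were of 3 kinds. The values were remade with neqc (offset 16), by quantile normalization with no background correction, or by centring each array on its median. The model took all 12 arrays, the replicate block, a block for the label code number, or the methods' t-test. The set was limited to probes detected on 3 or more arrays or to the brightest probe per gene, each array was left out in turn, and other thresholds were applied.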

Additional observations from a re-analysis of the deposited data

How the results depend on the processing

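The 10 called injury results of members (5 in WT, 5 in Mapk9 KO) kept their sign in all 170 alternatives computed for them and their call in 163, and 7 kept it in every one. The exceptions were Hyal1 in both genotypes under quantile normalization without background correction (-0.83 and -0.81), and Hyal2 in WT with array medians subtracted (-0.97), with the methods' t-test (adjusted p = 0.0621) and without 1 of 3 WT arrays. That quantile setting also gave the smallest rises of Has1 (2.33 in WT, 2.37 in Mapk9 KO) and Has2 (1.14 and 1.74). The 35 member results that were not called stayed so in all 607 alternatives, 47 of them with the opposite sign. Over all probes, quantile normalization without background correction gave 1140 calls in WT, 1756 in Mapk9 KO, 13 between genotypes in controls and 22 in injured hips, against 3086, 3934, 25 and 38. The methods' t-test gave 1624 in WT and 0 in both genotype comparisons. Without a fold limit, 5319 (WT) and 8045 (Mapk9 KO) probes passed. A fit over all 12 arrays gave 44 calls for genotype in controls. The replicate block gave 188 for genotype in injured hips and 112 for the interaction, and it changed no call of a member. Its effect on the pathway and marker genes was not tabulated. With each array left out, genotype in controls gave 17 to 412, genotype in injured hips 23 (without WT injured replicate 2) to 154 (without WT injured replicate 1), with 64 without Mapk9 KO injured replicate 2, and the interaction 0 to 242, the highest without WT control replicate 3. With neqc, the log2 ratio of median summed marker level in WT turned sign for erythroid (0.04 to -0.15), endothelial (0.05 to -0.00381) and fibroblast lists (0.03 to -0.19), and was 0.45 in place of 1.17 for chondrocytes. The cause of these shifts was not tested. Levels near background (Has1 and Has2 in controls, the dim Hyal1 and Cd44 probes) give bounds or loose values.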
